A study of Mus musculus with 6 samples.

Results

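Expression of 8 genes of the pluripotency network was compared between undifferentiated mouse embryonic stem (ES) cells and sorted Pax7-GFP cells. The genes were the core factors Pou5f1, Nanog, Sox2 and Sall4 and the factors or direct targets Utf1, Fbxo15, Zfp42 and L1td1. They were found by exact match to the gene symbol of the array platform, which gave 9 probe sets among 23521 with 1 symbol, and 8 genes among 22180. Sall4 had 2 probe sets and each other gene had 1. The series held 3 arrays of undifferentiated ES cells and 3 arrays of cells carrying green fluorescent protein as a reporter of Pax7, sorted after 3 weeks of differentiation toward skeletal muscle. Sort gates were set on undifferentiated cultures of the reporter line, per the labels' protocols. The labels name neither the lines nor their genotype, and do not say whether the ES arrays came from the reporter line or were sorted. Titles call the replicates biological without saying whether cultures were independent, so every p-value reflects the spread among these arrays, which may be partly technical.

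In mouse ES cells, Oct4 (encoded by Pou5f1) and Sox2 bind neighbouring DNA elements together, and with Nanog they occupy enhancers of many genes of the pluripotent state, their own included. Sall4 joins this circuit through shared targets and protein contacts. During differentiation the circuit is switched off, and Pou5f1 and Nanog are silenced by repressors, histone modification and DNA methylation.

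The promoters are shown because a joint Oct4 and Sox2 element is known to control several of these genes. RefSeq promoters (GRCm38.p6) of 6 of the 8 genes were used: Pou5f1, Nanog, Sox2, Utf1, Zfp42 and L1td1. No promoter of Sall4 was listed, and none of Fbxo15 was used. The chromosome of Fbxo15 was left out for the 8 genes but kept in the counts over all promoters. Each line gives the 250 bases before the annotated start, 5′ to 3′ on the strand of the gene. Capitals mark, on either strand, the octamer core ATGCAAA, the Sox element CATTGT, the GC box GGGCGG and the nuclear receptor element AGGTCA. Nanog lies at chr6:122707239-122707488 (plus strand), Zfp42 at chr8:43307010-43307259 (minus strand), Sox2 at chr3:34649745-34649994 (plus strand) and Pou5f1 at chr17:35505782-35506031 (plus strand).
Nanog: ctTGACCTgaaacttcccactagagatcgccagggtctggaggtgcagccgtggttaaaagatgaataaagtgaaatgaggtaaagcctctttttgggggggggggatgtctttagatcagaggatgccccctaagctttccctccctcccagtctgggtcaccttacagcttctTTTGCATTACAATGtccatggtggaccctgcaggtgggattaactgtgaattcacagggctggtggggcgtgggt
Zfp42: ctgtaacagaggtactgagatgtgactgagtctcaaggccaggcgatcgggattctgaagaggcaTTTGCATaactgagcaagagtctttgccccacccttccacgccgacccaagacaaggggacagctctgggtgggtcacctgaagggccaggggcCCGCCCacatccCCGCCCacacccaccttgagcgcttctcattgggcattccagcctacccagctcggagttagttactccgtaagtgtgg
Sox2: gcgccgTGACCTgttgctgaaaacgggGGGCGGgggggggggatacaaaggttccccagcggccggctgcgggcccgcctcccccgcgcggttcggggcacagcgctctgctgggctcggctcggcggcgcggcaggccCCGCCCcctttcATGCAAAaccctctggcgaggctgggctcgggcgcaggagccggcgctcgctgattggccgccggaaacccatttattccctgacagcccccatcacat
Pou5f1: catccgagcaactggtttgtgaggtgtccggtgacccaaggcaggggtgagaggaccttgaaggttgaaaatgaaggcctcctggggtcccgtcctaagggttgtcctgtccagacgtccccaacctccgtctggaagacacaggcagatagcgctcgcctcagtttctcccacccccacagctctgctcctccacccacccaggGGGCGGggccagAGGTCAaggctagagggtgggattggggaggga

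In the Nanog window the octamer core and the Sox element stood side by side on the reverse strand, at bases -75 to -62 from the start, as the run TTTGCATTACAATG. This is the composite of CATTGT, any base, ATGC, any base and AA. Only 2 of the 32851 RefSeq promoters held it (0.00609%), and both were windows of Nanog, which has 2 annotated starts. Zfp42 carried the octamer core within the longer form ATGCAAAT on the reverse strand, at bases -186 to -179, a form present in 1.60% of all promoters. Sox2 carried the core on the forward strand at bases -99 to -93. The core occurred in 4.12% of all promoters, the Sox element in 10.7%, the GC box in 32.7% and AGGTCA in 14.0%. In the Pou5f1 window shown, the GC box at bases -45 to -40 was followed by AGGTCA at bases -33 to -28, with neither the octamer core nor the Sox element. The window before a second annotated start of Pou5f1 held the Sox element alone. Utf1 had 4 GC boxes, of which 2 overlapped by a base, and L1td1 had none of the motifs. Among tested genes with a promoter in the table, the octamer core was present in 5.26% of 1236 genes called lower in Pax7-GFP cells, 4.51% of 1198 called higher and 4.43% of all 16990. A match of letters does not show binding, and enhancers outside these windows were not examined.

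The arrays were alike in scale, with medians over genes from 6.01 to 6.11 on the log2 scale. Across genes, which are not independent replicates, arrays correlated at r = 0.997 within ES, 0.987 to 0.993 within Pax7-GFP and 0.895 to 0.905 between groups. Pax7, the gene of the sorting reporter, went from 5.70 ± 0.073 in ES to 10.90 ± 0.25 in Pax7-GFP cells (SD, n = 3 each). This checks the sort. Of 8 myogenic markers 7 were called higher and 0 lower, beside 7.34% and 7.15% of all genes. Among the 7 were the determination factor Myf5, at a log2 fold change of 5.16, and Pax7 itself, on whose reporter the cells were sorted. Pax3, named after its values were seen, was not called at 0.89. The mean log2 signal of the 8 markers ranged from 5.85 to 5.95 in ES and from 10.12 to 10.34 in Pax7-GFP arrays.

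All 8 genes were lower in Pax7-GFP cells. A gene was called where limma's adjusted p, over all 22180 genes, was under 0.05 and the difference at least 2-fold. By this rule 7.15% of all genes were called lower, 7.34% higher and 14.5% in either direction. The 8 genes were picked as pluripotency genes with earlier results of these data known, so their count is a description. Their log2 fold changes (Pax7-GFP minus ES) ran from -7.12 to -1.79 with a median of -4.69, against a median of 0.024 over all genes. In no gene did the groups overlap, with all ES arrays above all Pax7-GFP arrays in 9 of 9 probe sets. The share of all probe sets without such overlap was not computed, so this count has no background to be read against. Each array measured a pool of cells, so fewer cells with a transcript and less transcript per cell cannot be told apart.

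**Figure D1:**
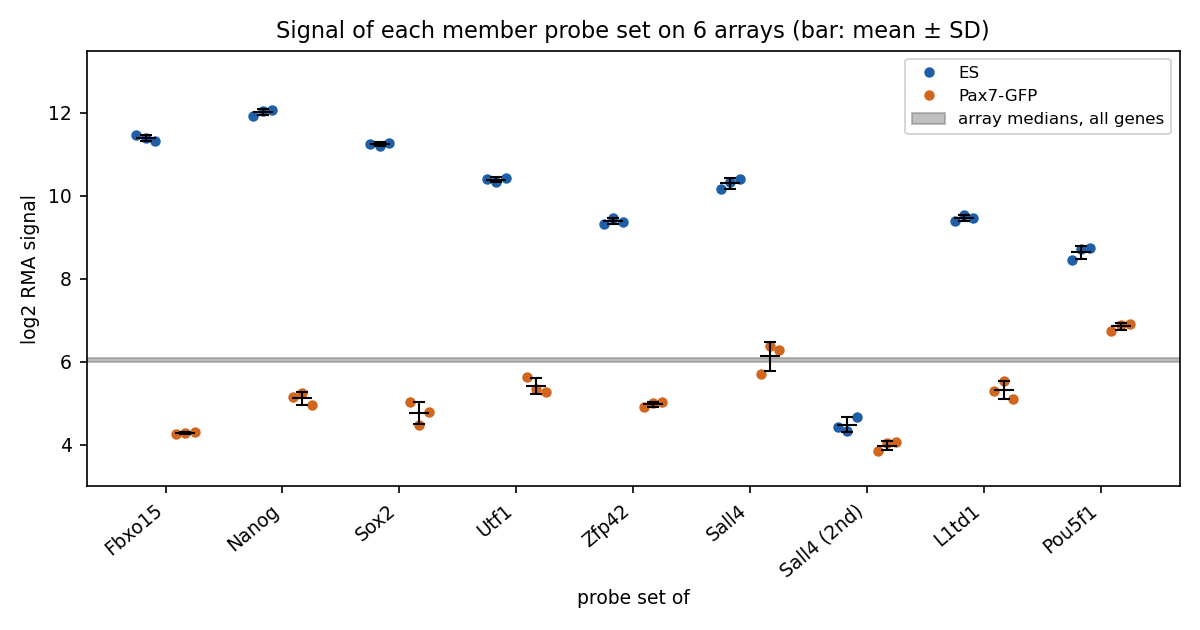
The plot shows the log2 signal (vertical axis) of the 9 probe sets on each of the 3 ES and 3 Pax7-GFP arrays, with mean and SD, and a grey band for the array medians over genes (6.01 to 6.11). Pou5f1 alone stayed above the band on all 3 Pax7-GFP arrays, and the second Sall4 probe set lay below it in both groups.

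Among the core factors, the homeodomain protein gene Nanog had log2 signals of 11.93, 12.05 and 12.07 on the ES arrays and 5.17, 5.26 and 4.96 on the Pax7-GFP arrays. The ES values lay close together, and every Pax7-GFP value was below its array's median over genes. Nanog fell by 6.89 on the log2 scale (SE 0.10, 119-fold, limma adjusted p = 1.00e-08).

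Sox2, which encodes the HMG-box partner of Oct4, stood at 11.26, 11.21 and 11.29 in ES and at 5.03, 4.49 and 4.81 in Pax7-GFP cells. Its Pax7-GFP arrays spread more (SD 0.27) than its ES arrays (SD 0.042), with replicate 2 lowest. The difference was 6.48 on the log2 scale (SE 0.13, 89.1-fold, limma adjusted p = 1.87e-08).

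Sall4, a zinc finger factor, was measured by 2 probe sets that differed. Probe set 17394865 read 10.17, 10.33 and 10.41 in ES and 5.72, 6.38 and 6.30 in Pax7-GFP cells. Replicate 1 was the low Pax7-GFP array, and the SD of 0.36 was the largest of the 8 genes. By this probe set Sall4 fell by 4.17 on the log2 scale (SE 0.17, 18.0-fold, limma adjusted p = 4.85e-07). Probe set 17379992 read 4.44, 4.34 and 4.68 in ES and 3.85, 4.04 and 4.07 in Pax7-GFP cells, below the 25th percentile of genes (4.72 to 4.85) on every array. Its difference of -0.50 (SE 0.11; adjusted p = 0.00747 by limma over 23521 probe sets, of which 7.09% were called lower) was short of the 2-fold minimum. With the mean of both probe sets the Sall4 difference was -2.33. Which part of the transcript each probe set covers is not given in the sources used here.

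With each gene read from its probe set of highest mean, Pou5f1 had the smallest fall. Its probe set read 8.47, 8.71 and 8.75 in ES and 6.76, 6.90 and 6.91 in Pax7-GFP cells. Replicate 1 was lowest in each group, and the lowest ES array was 1.55 above the highest Pax7-GFP array. Pou5f1 fell by 1.79 on the log2 scale (SE 0.10, 95% interval of the log2 fold change -2.02 to -1.55, limma adjusted p = 3.20e-06), or 3.45-fold. It was the only gene of the 8 whose signal stayed above the median over genes on all 3 Pax7-GFP arrays. Sall4 was above it on 2 arrays and the other 6 genes on 0.

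The RefSeq gene table lists 7 pseudogenes named after Pou5f1, of which 5 are marked transcribed, and whether the probes distinguish them from Pou5f1 is not given. One of them, Pou5f1-rs4, had a probe set of its own, chosen after its values were seen. It read 5.60, 5.51 and 5.34 in ES and 5.43, 5.59 and 5.25 in Pax7-GFP cells. Those groups overlapped, and they differed by -0.061 (SE 0.11; adjusted p = 0.730 by limma). The table also lists 2 pseudogenes of Nanog and 1 of Zfp42, for which the platform names no probe set. The part of such copies in the Pou5f1 signal was not tested.

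Of the remaining genes, Utf1, a chromatin-bound cofactor of ES cells, read 10.42, 10.33 and 10.43 in ES and 5.64, 5.35 and 5.28 in Pax7-GFP cells. It fell by 4.97 on the log2 scale (SE 0.11, 31.3-fold, limma adjusted p = 2.44e-08). Fbxo15, an F-box protein gene activated by Oct4 and Sox2, read 11.48, 11.40 and 11.33 against 4.25, 4.30 and 4.31. Its Pax7-GFP arrays were the tightest of the 8 genes (SD 0.029), and it fell by 7.12 (SE 0.080, 139-fold, limma adjusted p = 5.12e-09). Those arrays lay below log2 5, and with signals below 5 set to 5 the fold of Fbxo15 was 84.7, at a log2 fold change of -6.40.

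Zfp42, which encodes the YY1-related factor Rex1, read 9.34, 9.46 and 9.38 in ES and 4.92, 5.01 and 5.03 in Pax7-GFP cells. It fell by 4.41 (SE 0.081, 21.3-fold, limma adjusted p = 1.68e-08) with little spread in either group (SD 0.064 and 0.060). L1td1, an RNA-binding protein gene derived from a LINE-1 retrotransposon, read 9.40, 9.55 and 9.47 against 5.31, 5.54 and 5.12. It fell by 4.15 (SE 0.12, 17.8-fold, limma adjusted p = 7.06e-08).

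**Figure D2:**
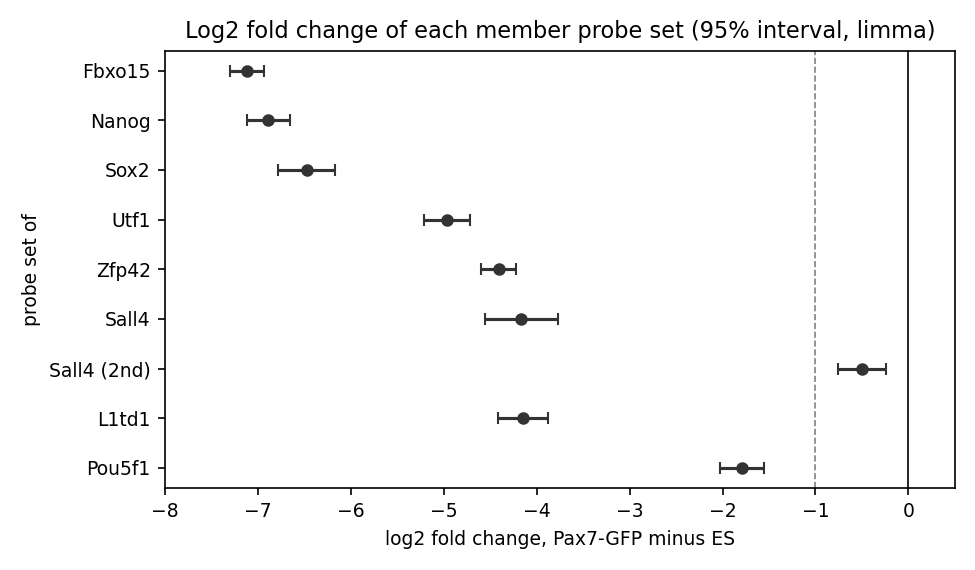
The plot gives the log2 fold change, Pax7-GFP minus ES, of each probe set with its 95% interval from limma, and a dashed line at the 2-fold minimum of -1. Pou5f1 at -1.79 lies apart from the other 7 genes, which lie between -7.12 and -4.15, while the second Sall4 probe set at -0.50 does not reach the line.

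The falls were ordered from Fbxo15 through Nanog, Sox2, Utf1, Zfp42, Sall4 and L1td1 to Pou5f1. The steps are given as a description, since the order was made from the same values and the smallest exact permutation p that 3 arrays against 3 allow is 0.10. Each is the difference between the log ratios of both genes within each array. From Fbxo15 to Nanog the step was 0.23 (SE 0.13), from Nanog to Sox2 0.41 (SE 0.22), from Zfp42 to Sall4 0.24 (SE 0.19) and from Sall4 to L1td1 0.019 (SE 0.23). In these 4 steps the ratios of the ES and Pax7-GFP arrays overlapped. In the steps from Sox2 to Utf1 (1.51, SE 0.12), Utf1 to Zfp42 (0.56, SE 0.16) and L1td1 to Pou5f1 (2.36, SE 0.15) they did not. With signals below log2 5 set to 5, the fall of Fbxo15 was 6.40 and stood behind that of Nanog at 6.88.

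Each of the other 7 genes, read from its probe set of highest mean, fell further than Pou5f1. The excess was 5.33 for Fbxo15 (SE 0.14), 5.10 for Nanog (SE 0.12), 4.69 for Sox2 (SE 0.22), 3.18 for Utf1 (SE 0.19), 2.62 for Zfp42 (SE 0.070), 2.38 for Sall4 (SE 0.16) and 2.36 for L1td1 (SE 0.15), on the log2 scale. The smaller fall of Pou5f1 was known when it was made the comparator, so these differences are a description and carry no test. Pou5f1 also had the lowest ES mean of the 8 genes, 8.64 against 9.395 for Zfp42 and up to 12.02 for Nanog. Its Pax7-GFP mean of 6.86 was the highest of the 8. Whether the excess depends on the ES levels was not tested. With the mean of its probe sets the excess of Sall4 was 0.55.

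Put as a share of the ES signal, 29.0% was left in Pax7-GFP cells for Pou5f1 (95% interval 24.6 to 34.1) and 0.842% for Nanog (0.718 to 0.989). The shares were 0.720% for Fbxo15, 1.12% for Sox2, 3.20% for Utf1, 4.70% for Zfp42, 5.56% for Sall4 and 5.63% for L1td1. That of Sall4 was 19.8% with the mean of its probe sets, and that of Fbxo15 1.18% with signals below log2 5 set to 5. The signals include background, so these shares are not molecule numbers. Fbxo15 and Nanog are both markers of undifferentiated cells. The part of undifferentiated cells in the Pou5f1 signal was not tested. Germ cells also transcribe Pou5f1. Of 9 measured germ cell markers 5 were called lower, 0 higher and 4 not called, beside 7.15% of all genes called lower and 7.34% higher. Their mean log2 signal was 6.41 to 6.47 in ES and 5.09 to 5.19 in Pax7-GFP arrays. The largest germ cell falls were those of Kit, a receptor tyrosine kinase that ES cells also carry, at -3.42 (SE 0.097) and Dazl, an RNA-binding protein of germ cells, at -2.39 (SE 0.21). Between 3 and 6 germ cell markers were called lower over the alternatives that kept the 2-fold minimum. The count was 3 without Pax7-GFP replicate 1.

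The rest of the pluripotency network was read from lists of genes with known roles. The count of each list is to be read beside the 7.15% of all genes called lower and 7.34% called higher. Of 19 measured transcription factors of the network 14 were called lower, 0 higher and 5 not called, with a median log2 fold change of -1.63. The largest falls were those of the nuclear receptor gene Nr0b1, by 6.96 (SE 0.15) to 4.82 ± 0.32 (SD, n = 3), and of Tfcp2l1, a factor of the naive state, by 5.53 (SE 0.11). Of 19 measured targets of Oct4, Sox2 or Nanog 18 were called lower, 0 higher and 1 not called, with a median of -2.68. Over the alternatives that kept the 2-fold minimum, 17 to 18 were called lower. Tdgf1, a Nodal co-receptor, fell by 7.13 (SE 0.087), and Dppa2, a chromatin protein of early embryos, by 5.79 (SE 0.089). The target not called, named after its values were seen, was Dppa5a at -0.18. The adjusted p-values of the 4 falls named lay between 5.12e-09 and 2.24e-08 (limma).

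Cofactors that bind Oct4, Nanog or Sall4 formed the next list. Of 21 measured partners 6 were called lower, beside 7.15% of all genes, 0 higher and 15 not called. The median of the list was -0.36. Over the alternatives that kept the 2-fold minimum, 5 to 6 were called lower. Of the 15 not called, 8 had a limma adjusted p under 0.05. The histone deacetylase gene Hdac1 fell by 2.07 (SE 0.12), from 11.79 ± 0.093 to 9.72 ± 0.23, and Parp1, a poly(ADP-ribose) polymerase gene, fell by 1.52 (SE 0.14). Hdac2, a close relative of Hdac1 named after its values were seen, stood at 0.15 (SE 0.081, limma adjusted p = 0.177).

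Genes known to act in silencing Pou5f1 went both ways. Of 14 measured, 1 was called higher and 4 lower, beside 7.34% and 7.15% of all genes. The other 9 were not called, and 8 of the 9 had a limma adjusted p under 0.05. The median of the list was 0.15. Nr2f2, an orphan nuclear receptor that represses Pou5f1, was at 5.96 ± 0.072 in the ES and 7.50 ± 0.28 in the Pax7-GFP arrays (SD, n = 3 each), a rise of 1.54 (SE 0.14; adjusted p = 4.07e-05 by limma). The de novo DNA methyltransferase gene Dnmt3b fell by 3.36 (SE 0.11), and Hells, a chromatin remodeller needed for DNA methylation, by 1.87 (SE 0.084). Nr6a1, another nuclear receptor of this kind named after its values were seen, stood at -1.05 (SE 0.087) and at -0.99 without Pax7-GFP replicate 3, short of the minimum.

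**Figure D3:**
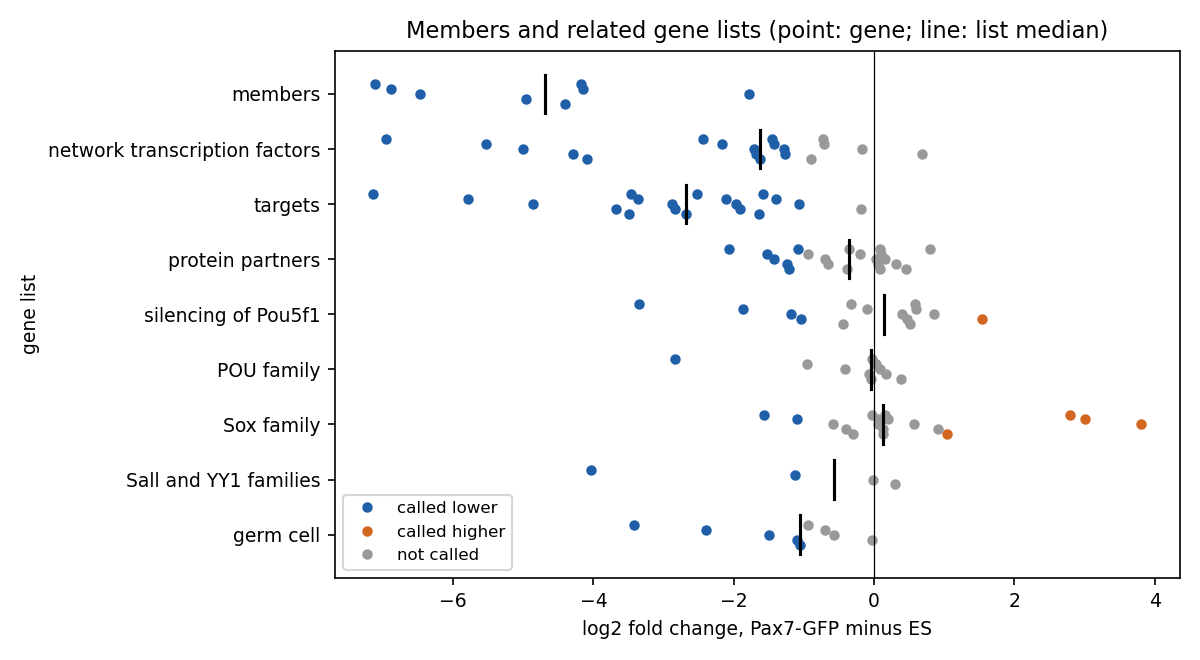
The plot shows the log2 fold change, Pax7-GFP minus ES (horizontal axis), of every measured gene in the lists named on the left, coloured by call, with a line at each median. The 8 genes (median -4.69) and their targets (median -2.68) lie to the left, while the protein partners (-0.36) and the POU (-0.040) and Sox (0.13) families centre near 0.

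Relatives of the core factors by protein family did not move as a block. Of 10 measured POU genes other than Pou5f1, 1 was called lower, 0 higher and 9 not called, with a median of -0.040. This is near the 7.15% of all genes called lower. The lower gene was Pou2f3, known for its role in tuft cells and keratinocytes, at 7.80 ± 0.28 in the ES and 4.97 ± 0.52 in the Pax7-GFP arrays (SD, n = 3 each). It fell by 2.84 (SE 0.25). Without ES replicate 1, or without Pax7-GFP replicate 3, 2 POU genes were called lower.

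Of 18 measured Sox genes other than Sox2, 4 were called higher and 2 lower, beside 7.34% and 7.15% of all genes. The other 12 were not called, and 5 of the 12 had a limma adjusted p under 0.05. The median of the list was 0.13. Sox4 rose by 3.81 (SE 0.20), Sox9 by 3.01 (SE 0.15), Sox8 by 2.80 (SE 0.12) and Sox11 by 1.04 (SE 0.11). Sox4 had 2 probe sets, whose mean gave 2.52. Sox9 directs cartilage formation and Sox8 is expressed in satellite cells. The rise of Sox11 was short of the 2-fold minimum without ES replicate 1 or without Pax7-GFP replicate 1, at 0.96 to 1.12 over all alternatives. Sox15, which ES cells and myoblasts share, fell by 1.57 (SE 0.14), and the neural factor Sox1 by 1.10 (SE 0.13). By limma the adjusted p ran from 7.54e-07 for Sox8 to 0.000231 for Sox1.

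Of the Sall4 relatives, Sall1 fell by 4.03 (SE 0.14), from 9.12 ± 0.14 to 5.09 ± 0.27, and Sall3 by 1.12 (SE 0.12). Sall2 was at 0.29 (limma adjusted p = 0.0331), below the minimum. Yy1, the zinc finger gene to which Zfp42 is related, read 10.46 ± 0.055 and 10.45 ± 0.092 (SD, n = 3 each), which is a difference of -0.0081 (SE 0.085; adjusted p = 0.956 by limma). Sall2 and Yy1 were named after their values were seen.

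Sox2 is also a factor of neural progenitors, and the markers of other cell types that a culture or gate could hold are given beside it. Their counts are to be read beside the 7.34% of all genes called higher and 7.15% called lower. Of 10 measured neural markers 3 were called higher, 3 lower and 4 not called, with a mean log2 signal of 6.41 to 6.47 in ES and 6.13 to 6.19 in Pax7-GFP arrays. Nes, an intermediate filament gene also active in muscle progenitors, rose by 2.19 (SE 0.11) and Fabp7 by 1.78 (SE 0.32), while Tubb3, a neuronal tubulin, fell by 4.30 (SE 0.18) and Olig2 by 2.42 (SE 0.094). Endoderm markers were higher in 2 of 7, Dab2 at 1.52 and Gata6 at 1.13, and lower in 0, and 1 was higher with the signal floor or the filter on dim genes. Their mean log2 signal was 5.83 to 5.86 in ES and 6.16 to 6.39 in Pax7-GFP arrays. Fibroblast markers were higher in 5 of 8 and lower in 0, led by Fap at 4.29 and Dcn at 3.03. Over the alternatives that kept the 2-fold minimum, 4 to 6 were higher. The fibroblast mean was 6.39 to 6.62 in ES and 8.08 to 8.55 in Pax7-GFP arrays. The part of any such cells in the signals of the 8 genes was not tested.

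The genes beside the 8 on their chromosomes were examined next, taking the 2 nearest tested genes on each side in the RefSeq gene order. Of 32 neighbours 7 were called lower, 3 higher and 22 not called, beside 7.15% and 7.34% of all genes. Nanog lay among genes that fell, of which Gdf3 and Dppa3 are also in the list of targets. Gdf3, a growth factor gene of the TGF-beta family, fell by 4.87 (SE 0.18), Dppa3, a maternal and germ cell factor gene, by 1.64 (SE 0.16), and Slc2a3, a glucose transporter gene, by 4.23 (SE 0.30). Foxj2, beyond Slc2a3, rose by 1.35 (SE 0.11). The pair of genes before Zfp42, Triml1 and Triml2, had log2 fold changes of -4.11 (SE 0.19) and -4.89 (SE 0.16), while Adam26b and Adam26a on its other side were at 0.027 and -0.11 and were not called.

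Pou5f1 had no lower neighbour. Tcf19, the next gene after it, was at 7.38 ± 0.17 in the ES and 9.22 ± 0.085 in the Pax7-GFP arrays (SD, n = 3 each). It rose by 1.84 (SE 0.10; adjusted p = 3.12e-06 by limma), opposite in sign to Pou5f1. The nearest genes around Utf1 and L1td1 were all not called. These neighbours were chosen by position, after the values of the 8 genes were known.

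**Figure D4:**
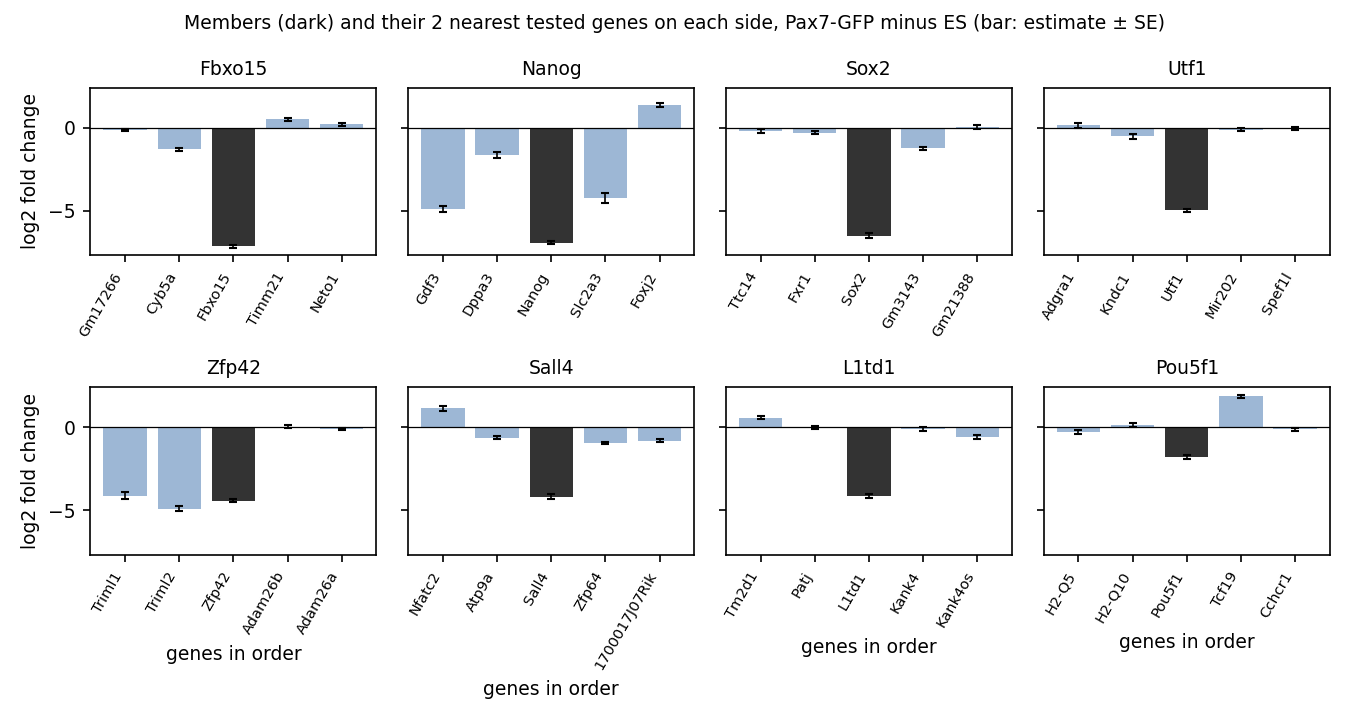
The bars give the log2 fold change, Pax7-GFP minus ES, with SE, of each of the 8 genes (dark) and its 2 nearest tested genes on either side (light), in chromosome order and not to distance. Nanog stands beside Dppa3 at -1.64, with Gdf3 at -4.87 beyond it. Zfp42 stands beside Triml2 at -4.89, with Triml1 at -4.11 beyond it, while Pou5f1 stands beside Tcf19, which rose by 1.84.

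Genes with the most similar profile were found by the Euclidean distance between log2 signals of the 6 arrays, each gene centred on its mean. With 2 groups this mostly reflects the size of the difference. For Pou5f1 the nearest were Tex14 (distance 0.15), Aldh9a1 (0.15) and Sohlh2 (0.16), with log2 fold changes of -1.78, -1.74 and -1.73. For Nanog they were Nr0b1 (0.33), Zfp640 (0.40) and Tdgf1 (0.41), at -6.96, -7.03 and -7.13. Those of Sox2 were Rex2 (0.35), Apela (0.49) and Epp13 (0.60), at -6.65, -6.81 and -6.08. Zfp640 and Rex2 are zinc finger genes, and whether their probe sets are specific to a single family member is not given.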

How the data were processed

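Total RNA of 6 mouse samples was labelled with biotin after amplification and hybridised to 1 single-colour array each, per the labels' protocols. The deposited values are the authors' log2 RMA signals (robust multi-array average), made in R 2.12.1 per the submitters' processing notes. For RMA options, probe set definitions and genome build, the sources used here give nothing. Values ran from 2.73 to 13.7. Of 41345 rows, 23521 had 1 symbol in the platform annotation, 1814 several and 16010 none. Where a symbol had several probe sets, the one of highest mean over the 6 arrays stood for the gene.

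Groups came from the sample titles. The comparison used limma 3.58.1 in R 4.3.3 (lmFit, eBayes, Benjamini-Hochberg over all 22180 genes), tested on simulated data. RMA compresses differences near background, no detection calls were used here, and the number of arrays limits precision. Levels are mean ± SD.

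The 8 genes and all lists were chosen with earlier results of these data known. Named genes were the 8, the 2 largest called falls and rises of each list, every called relative by family, Pax7 and the 3 nearest profiles of Pou5f1, Nanog and Sox2. Others are named as chosen after their values were seen. Alternatives changed scaling, floor, filter, probe set rule, variance prior, replicate block, unit of adjustment, fold threshold and arrays. Ranges of called genes over the alternatives leave out the changed fold thresholds.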

Additional observations from a re-analysis of the deposited data

How the results depend on the processing

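All 8 genes were called lower under every alternative run except a minimum log2 fold of 2, under which Pou5f1 at -1.79 was not called. Between 3033 and 3309 genes in all were called under the other settings, against 3212, while 9126 passed with no minimum fold and 1010 with a minimum of 2. Leaving out single arrays kept the log2 fold change of Pou5f1 between -1.88 and -1.73 and that of Nanog between -6.96 and -6.81. With the replicate block 3213 genes were called. The labels name no batch shared by same-numbered arrays, so the numbers were not taken as pairs. Deviations from the group means correlated across genes at r = -0.11, -0.22 and 0.0069 for same-numbered arrays. For differently numbered arrays r was -0.077 to 0.195. Such correlations cannot decide whether arrays were paired. The block changed no call of the 8 genes. With the mean of all probe sets the log2 fold change was -2.33 for Sall4, 2.52 for Sox4 and -0.66 for Gbx2. Of 76 called list genes 10 lost their call under at least 1 of 14 alternatives that kept the 2-fold minimum: Gbx2, Cd9, Arid3b, Mta3, Nr6a1, Sox11, Tfap2c, Nanos3, Gata6 and Postn.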
